A study of Drosophila melanogaster with 18 samples.

Results

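The regions described here were the peaks of human ZKSCAN4 in Drosophila S2 cells that no ZKSCAN3 peak overlapped and that lay away from promoters. They were selected on 2 readouts of the deposited peak lists: a row of the ZKSCAN4 list was kept where not 1 bp of it overlapped a row of the ZKSCAN3 list and where it did not reach into the 500 bp on either side of the 5'-most exon boundary of any gene in the count table of the male larvae. The rule kept 2086 of 8745 ZKSCAN4 peaks (23.9%), and 17736 peaks were listed for both factors together. They are called ZKSCAN4-only distal peaks below. The other peaks were 438 ZKSCAN4-only promoter peaks, 2867 shared distal and 3354 shared promoter peaks (rows of the ZKSCAN4 list), and 1332 distal and 2000 promoter peaks of ZKSCAN3 only.

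The ChIP samples came from 2 stable lines of S2-DRSC cells, a line derived from late embryos, in which copper induced an HA-tagged human factor: HA::ZKSCAN4 with 2 ChIP replicates and 1 input, and HA::ZKSCAN3 with 2 ChIP replicates and 1 input, the ChIP samples precipitated with an antibody to HA. The genotype entry of the second ZKSCAN3 replicate reads HA::ZKSCAN4, whereas its title, source and cell line name ZKSCAN3, and it was taken as ZKSCAN3. The authors merged the replicates into 1 list per factor, so no value of a peak has a replicate error, and every test between peak lists compares those lists with peaks as the units. RNA-seq counts came from larval fat body and not from S2 cells, and no RNA-seq group expressed ZKSCAN4: wild type females that were wandering (L3W) or feeding (L3F) larvae of the last instar, and feeding males without gonads carrying the cgGal4 driver, which is active in fat body and in hemocytes, with M1BP RNAi, with ZKSCAN3, with both, or with neither (WT). Each group had 2 libraries, with 53462739 to 76798943 counts per library.

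ZKSCAN3 and ZKSCAN4 are paralogous vertebrate transcription factors with a SCAN domain, a KRAB domain and an array of C2H2 zinc fingers, and neither has a direct counterpart by domain structure in the fly. M1BP is the Drosophila zinc finger factor that binds Motif 1 in the core promoters of many broadly expressed genes. Chromatin immunoprecipitation maps where such a tagged protein is crosslinked to DNA. Distal regions bound by transcription factors commonly lie in introns or between genes, where enhancers are found, and GATA factors, which read words such as GATAAG, include Serpent, the factor that fat body and blood cells share.

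The sequences show what the strongest of these peaks look like at their centres. Printed is the centre with 100 bases on each side for 8 of the highest-scoring peaks, those whose window held no UTR and lay on an arm from which sequence is shown here, from the dm6 plus strand of the RefSeq assembly, each named by its linked gene (the gene whose span holds the centre, else the gene with the nearest start). Capitals mark 3 words wherever they stood on either strand. The first is the GATA factor word GATAAG. The others led a scan of all words of 6 letters that is described further on, and the one of them that is found in these windows is AGATAC. The last of the words, which the scan put in the first place, is AATGGG.
CG43336: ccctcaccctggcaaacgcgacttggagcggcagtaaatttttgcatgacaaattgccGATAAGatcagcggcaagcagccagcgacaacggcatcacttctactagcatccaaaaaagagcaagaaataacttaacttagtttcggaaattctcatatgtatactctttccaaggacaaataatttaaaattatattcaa
jvl: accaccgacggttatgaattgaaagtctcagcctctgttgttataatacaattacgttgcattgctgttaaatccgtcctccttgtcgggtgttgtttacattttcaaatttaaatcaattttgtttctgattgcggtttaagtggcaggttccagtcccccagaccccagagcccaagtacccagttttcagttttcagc
plum: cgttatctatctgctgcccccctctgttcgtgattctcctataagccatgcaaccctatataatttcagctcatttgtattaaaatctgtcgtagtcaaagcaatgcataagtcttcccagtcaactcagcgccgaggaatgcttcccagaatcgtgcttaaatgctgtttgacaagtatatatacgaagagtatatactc
Samuel: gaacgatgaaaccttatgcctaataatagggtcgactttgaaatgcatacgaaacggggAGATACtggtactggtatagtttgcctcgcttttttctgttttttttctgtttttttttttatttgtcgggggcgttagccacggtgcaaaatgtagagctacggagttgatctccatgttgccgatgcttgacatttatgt
CG2991: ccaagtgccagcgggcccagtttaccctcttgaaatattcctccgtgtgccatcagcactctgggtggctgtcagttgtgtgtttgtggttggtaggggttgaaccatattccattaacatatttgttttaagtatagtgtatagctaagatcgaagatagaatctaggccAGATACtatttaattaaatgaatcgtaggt
tai: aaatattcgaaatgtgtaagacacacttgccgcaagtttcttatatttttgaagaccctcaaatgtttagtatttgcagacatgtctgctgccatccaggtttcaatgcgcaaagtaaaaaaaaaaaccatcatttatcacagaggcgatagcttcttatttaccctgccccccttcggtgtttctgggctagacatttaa
Tet: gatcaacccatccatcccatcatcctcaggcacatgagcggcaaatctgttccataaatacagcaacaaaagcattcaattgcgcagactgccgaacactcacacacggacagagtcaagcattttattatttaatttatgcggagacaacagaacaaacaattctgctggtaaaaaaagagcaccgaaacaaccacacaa
lncRNA:CR45980: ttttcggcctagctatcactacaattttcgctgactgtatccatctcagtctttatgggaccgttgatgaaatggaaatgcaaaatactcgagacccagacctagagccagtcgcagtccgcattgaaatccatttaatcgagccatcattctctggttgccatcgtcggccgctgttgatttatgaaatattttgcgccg
GATAAG was in the window by CG43336 and AGATAC in those of Samuel and CG2991, and the other 5 windows held none of the 3 words. The windows lay at 3R:15651174-15651374 between genes (CG43336), 3R:14744663-14744863 in an intron of jvl, 3R:26480100-26480300 in an intron of plum, 2L:11025904-11026104 in an intron of Samuel, 2L:2864355-2864555 in an intron of CG2991, 2L:9192076-9192276 in an intron of tai, 3L:2863357-2863557 in an intron of Tet and 3L:6381357-6381557 between genes (lncRNA:CR45980).

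For contrast, the highest-scoring peaks whose centre held both words of the scan were those in introns of Wdr62 (2L:1942670-1942870) and osp (2L:14678215-14678415), which were picked for those words after they were known.
Wdr62: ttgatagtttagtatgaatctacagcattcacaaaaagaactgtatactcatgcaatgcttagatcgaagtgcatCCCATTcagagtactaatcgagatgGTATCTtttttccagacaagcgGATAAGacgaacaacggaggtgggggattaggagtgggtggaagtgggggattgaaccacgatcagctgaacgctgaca
osp: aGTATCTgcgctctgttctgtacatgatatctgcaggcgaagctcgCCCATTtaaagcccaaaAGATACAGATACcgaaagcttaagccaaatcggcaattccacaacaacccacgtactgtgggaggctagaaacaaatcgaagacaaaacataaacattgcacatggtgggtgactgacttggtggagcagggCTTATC
Read on the other strand these words appear in capitals as their reverse complements. The osp window held 3 copies of AGATAC with 1 copy each of the other words, and the Wdr62 window 1 copy of each of the 3. A match is a string in a window and not a shown binding site, and the centre of a peak is not its summit, which the lists do not give.

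The ZKSCAN4-only distal peaks were low in score for their list and narrower than shared distal peaks, though not than ZKSCAN3-only distal peaks. Their median width was 596 bp and their median score 17.96, against 921 bp and 36.36 in shared distal peaks and 506 bp and 36.04 in ZKSCAN3-only distal peaks, where the last score belongs to the other list and is on its own scale. The median score of all ZKSCAN4 peaks was 27.51, and 583 of the 2086 (27.95%) reached it. Scores ran to 181.9, with 33 over 100, and at the lower end 7 peaks scored at most 1.146 while the next scored 7.268. The highest was rank 48 of the ZKSCAN4 list. What the score measures is not given with the lists.

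The highest score, 181.9, belonged to a peak at 3R:15649978-15652569 that lay between genes, 14106 bp from the nearest start, that of CG43336, and 6160 bp from the nearest ZKSCAN3 peak. The second, 163.1, lay in an intron of jvl, which encodes a protein of bristle microtubules, and the third, 148.4, in an intron of chn on 2R, which encodes the zinc finger protein Charlatan. The next lay in introns of plum (145.9), an immunoglobulin family receptor of neuronal remodelling, of Samuel (141.1), of CG2991 (140.2), of tai (137.1), the coactivator of the ecdysone receptor, and of Tet (136.2), the fly member of the TET dioxygenases. The ninth lay between genes near lncRNA:CR45980 (128.9) and the tenth in an intron shared by CG42637 and Gyc76C (123.9), a receptor guanylate cyclase. Thus 8 of the 10 were intronic and 2 lay between genes, at 3181 to 25398 bp from a gene start.

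Near the limits of the rule, the closest ZKSCAN4-only distal peak began 502 bp from a gene start, the farthest ZKSCAN4-only promoter peak ended 493 bp from one, and 218 peaks (10.97%) had an edge within 1000 bp. The smallest gap to a ZKSCAN3 peak was 21 bp, and the smallest overlap of a shared distal peak was 10 bp. The median gap was 1893.5 bp among the 1992 peaks on a sequence with any ZKSCAN3 peak, 401 of them (20.13%) had a ZKSCAN3 peak within 500 bp and 256 (12.85%) had none within 10000 bp. The rule used only the 5'-most start of a gene, and 228 peaks (11.47%) reached within 500 bp of another annotated transcript start, against 27.09% of shared distal and 19.91% of ZKSCAN3-only distal peaks. Non-overlap with the other list is therefore not absence of ZKSCAN3 from the neighbourhood.

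Not all of the peaks sat on assembled arms. On 2L there were 416 (17.69 per Mb), on 3L 491 (17.47), on 3R 495 (15.43), on 2R 311 (12.3), on X 264 (11.21), on the fourth chromosome 7 (5.192) and on Y 3. The remaining 99 peaks lay on 88 scaffolds, with 79 peaks on X scaffolds of unplaced order, 16 on scaffolds of unknown chromosome and 4 on those of Y. The count table has no gene on those sequences, so any ZKSCAN4-only peak there passed as distal, and 85.34% of the 116 ZKSCAN4 peaks on scaffolds were kept by the rule against 18.95% to 25.33% on the large arms. The scaffold peaks were left out of every share below, which leaves 1987.

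The centres lay mostly within genes. An intron held 1149 of 1987 (57.83%, Wilson 95% interval 55.64 to 59.98), a coding exon 334 (16.81%, 15.23 to 18.52), the space between genes 309 (15.55%, 14.02 to 17.21), a 3' UTR 80 (4.03%), a noncoding exon 60 (3.02%) and a 5' UTR 55 (2.77%). The median distance to the nearest gene start, 4233 bp, was near the 4213 bp of shared distal peaks and the 3974 bp of ZKSCAN3-only distal peaks, and 857 centres (43.13%) were more than 5 kb away. Transposable elements held 43 centres (2.16%). The intervals cover counting error only.

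ZKSCAN4-only distal centres were more often intronic than ZKSCAN3-only distal centres, 57.83% against 49.16%, a difference of 8.67 percentage points (Fisher's exact test, two-sided, adjusted p = 9.11e-06 over 8 tests). The difference was 22.17 points with the peaks at or above the median score of each list, 13.49 points by gene span and 3.88 points (adjusted p = 0.0378) when shared peaks had to overlap by 50%. The cut by score came before overlaps were found, so peaks overlapping a lower-scoring ZKSCAN3 peak then counted as ZKSCAN4-only. ZKSCAN4-only distal centres were less often intronic than shared distal centres, 57.83% against 63.16% (difference -5.33 points, adjusted p = 0.000811), but the sign turned to 0.43 points (adjusted p = 0.981) with the peaks at or above the median score of each list and to 0.75 points (adjusted p = 0.681) when centres were counted inside gene spans, exons included. The coding exon share, a comparison added after these shares were seen, was 16.81% in ZKSCAN4-only distal peaks, against 9.19% in ZKSCAN3-only distal peaks (7.62 points, adjusted p = 9.07e-10 over 14 tests) and 7.86% in shared distal peaks (8.95 points, adjusted p = 3.58e-20). So the lower intronic share against shared peaks stood beside a higher coding exon share, while the share between genes was alike in both, 15.55% against 15.47%.

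**Figure D1:**
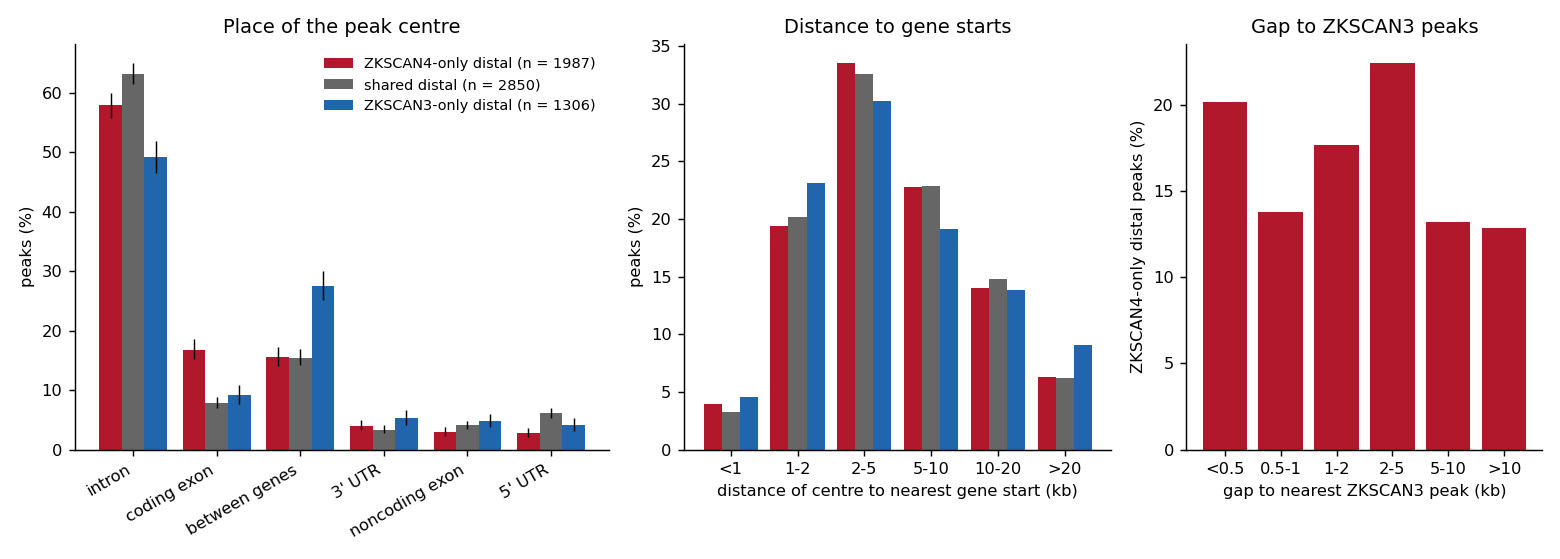
Place of the peak centres, with the percentage of peaks on each vertical axis. The left panel gives the annotated place with Wilson 95% intervals, the middle panel the distance of the centre to the nearest gene start in kb, and the right panel the gap of ZKSCAN4-only distal peaks to the nearest ZKSCAN3 peak in kb. Coding exons held 16.81% of ZKSCAN4-only distal centres, against 7.86% of shared distal and 9.19% of ZKSCAN3-only distal centres.

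The score went with width and with place. Of 4 groups of near equal size by score, the highest (30.19 to 181.9, 492 peaks) had a median width of 839 bp and 63.21% of centres in introns, and the lowest (1.021 to 12.1, 497 peaks) 476 bp and 52.31%. Centres in coding exons had a median score of 15.71, those in introns 19.04 and those between genes 19.27. The centres were richer in G and C than their flanks, with a median of 45.77% in the centre window and 41.29% in windows of the same length 1000 bp away, and the 44.78% and 44.28% of ZKSCAN3-only distal and shared distal centres were close to the first of these.

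The GATA word was present in a minority of the peaks. GATAAG, searched on both strands, was within 100 bp of the centre in 234 of 1987 peaks (11.78%, 10.43 to 13.27), whereas of all windows of the same length 8.33% along the major arms and 12.25% at gene starts held it. The share was 9.41% in the flanks, a difference of 2.37 points (exact McNemar test, 207 peaks with the word only at the centre and 160 only in the flank, adjusted p = 0.0433). That call was lost when shared peaks had to overlap by 50% (1.62 points, adjusted p = 0.113), with promoters of 1000 bp (1.47 points, adjusted p = 0.355) and for the shorter word GATAA (0.25 points, adjusted p = 1). The other 6 alternatives kept it, at 2.47 to 4.05 points.

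The share of GATAAG did not set ZKSCAN4-only distal peaks apart from the other peaks at this window. It was 11.78%, against 11.18% in ZKSCAN3-only distal peaks (Fisher's exact test, difference 0.60 points, adjusted p = 0.704), 12.63% in shared distal peaks (-0.86 points, adjusted p = 0.53) and 11.19% in ZKSCAN4-only promoter peaks (0.59 points, adjusted p = 0.805). With both lists cut at their median score before overlaps were found, the difference from ZKSCAN3-only distal peaks was 4.39 points (adjusted p = 0.0485). Over whole peaks, whose widths differ, it was 6.96 points (adjusted p = 4.78e-05). Against shared distal peaks, which are wider, the whole-peak difference was -14.91 points (adjusted p = 1.77e-24). By place the word was in 13.4% of intronic centres, 10.03% of those between genes and 9.58% of those in coding exons. The 3 lower groups by score had it in 11.07% to 11.27% of peaks and the highest in 13.62% (10.87 to 16.93), with overlapping intervals.

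Motif 1, searched as GGTCACACT on both strands, was almost missing from the ZKSCAN4-only distal peaks. It was within 100 bp of the centre in 1 of 1987 (0.0503%), against 4 of 1306 ZKSCAN3-only distal peaks (0.306%, adjusted p = 0.169) and 6 of 2850 shared distal peaks (0.211%, adjusted p = 0.403), so neither difference passed. Over whole peaks both did, at -0.64 points (adjusted p = 0.016) and -1.03 points (adjusted p = 9.54e-05). At gene starts 4.33% of windows of this length held it, and along the arms 0.203%.

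Of 6 further words of known factors, added after the first shares had been seen, 3 were rarer in ZKSCAN4-only distal centres, 1 was commoner and 2 did not differ beyond counting error (Fisher's exact test, two-sided, adjusted over 14 tests, both strands throughout). The CA repeat CACACACA was in 2.82% of them, against 10.03% of ZKSCAN3-only distal (adjusted p = 2.57e-17) and 9.05% of shared distal centres (adjusted p = 8.32e-19), with 4.18% in their own flanks and 4.12% along the arms. GAGAGA, the word of GAGA factor, which opens chromatin at many fly promoters and enhancers, was in 7.90%, against 14.24% (adjusted p = 2.11e-08) and 14.91% (adjusted p = 2.17e-13), with 6.99% along the arms. For both repeats the ZKSCAN3-only and shared distal peaks stood farther from the share along the arms than the ZKSCAN4-only distal peaks did.

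TATCGATA, the word of the factor DREF at housekeeping promoters, was in 0 of 1987 ZKSCAN4-only distal centres, which allows a share of up to 0.151%, against 1.07% of ZKSCAN3-only distal (adjusted p = 4.57e-06) and 0.316% of shared distal centres (adjusted p = 0.0204). It was in 0.403% of the ZKSCAN4-only distal flanks, 0.550% of windows along the arms and 6.37% of those at gene starts. The part of other transcript starts, which fewer ZKSCAN4-only distal peaks reached, was not tested. TGTGGT, a word of Runx factors such as Lozenge, which directs crystal cells among the hemocytes, was in 11.27%, against 8.88% (adjusted p = 0.0423) and 8.18% (adjusted p = 0.000557), with 8.002% in the flanks of the same peaks and 9.28% along the arms. TGANTCA, the AP-1 word, was in 6.79% of ZKSCAN4-only distal, 6.97% of ZKSCAN3-only distal and 7.68% of shared distal centres. CACGTG, the palindromic E-box, was in 2.42%, 2.22% and 2.88% of them in the same order.

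**Figure D2:**
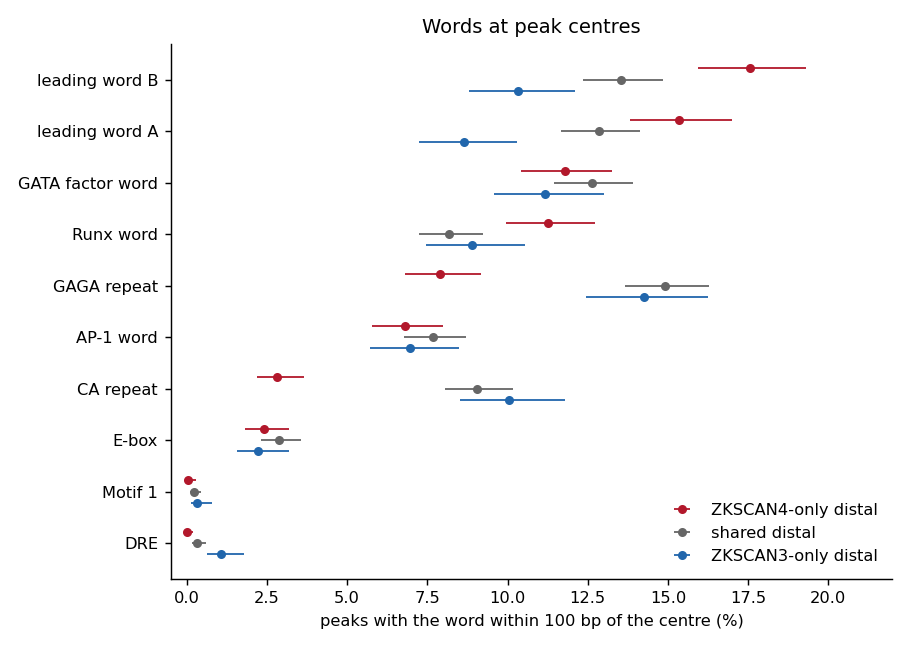
Percentage of peaks with each word within 100 bp of the centre on either strand (horizontal axis), as points with Wilson 95% intervals, for ZKSCAN4-only distal, shared distal and ZKSCAN3-only distal peaks. Leading word A is the word AGATAC of the scan, leading word B is the word that came first in the scan, and the others are named in the text. The CA repeat stood at 2.82% of ZKSCAN4-only distal peaks, against 9.05% of shared distal and 10.03% of ZKSCAN3-only distal peaks.

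All 2080 words of 6 letters, each counted together with its reverse complement, were then ranked by their share in ZKSCAN4-only distal centres minus that in the flanks, so the values of the leading words describe the selection and carry no test. AATGGG led with 17.56% of centres and 10.72% of flanks (6.84 points). AGATAC followed with 15.35% and 8.66% (6.69 points). GAGATA, which shares 5 letters with the word before it, was in 13.94% of centres and 7.75% of flanks (6.19 points). Another word rich in G and C came next with 14.39% of centres and 8.51% of flanks, namely GCAGCC. The fifth place, with 14.49% of centres and 9.01% of flanks, went to ATCCCA. With 10.02% of centres and 4.68% of flanks the next word overlapped the fourth in 5 letters and was CAGCCC. A word that shared 5 letters with the leading one was in 12.98% of centres and 7.70% of flanks, namely ATGGGC. Of the last 3 words, the first was in 12.48% of centres and 7.25% of flanks and read GCCCCA. The following was in 17.92% of centres and 12.78% of flanks and read CAAGTG. The last was in 13.84% of centres and 8.76% of flanks and read ATCATC. The lowest places of the ranking went to words of A and T only, with larger differences than the leading words. The lowest was in 15.55% of centres and 28.99% of flanks (-13.44 points) and read TTAAAA. The centres were also richer in G and C than the flanks (medians 45.77% and 41.29%), and the part of base composition in the ranking was not tested. The GATA factor word GATAAG, at 2.37 points, was not among the 10 leading words. The letters GATA were nevertheless part of AGATAC (6.69 points) and GAGATA (6.19 points), and the others of the 10 lacked them on both strands. In the paper, the most significant motif of the ZKSCAN4 peaks resembled that of GATA factors. Whether a GATA factor binds AGATAC in these peaks was not tested.

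The leading words were also looked at where the ranking had not been made. AGATAC was in 15.35% of ZKSCAN4-only distal centres, against 12.84% of shared distal, 10.73% of ZKSCAN4-only promoter and 8.65% of ZKSCAN3-only distal centres, with 7.88% along the arms. AATGGG was in 17.56%, against 13.54%, 11.64% and 10.34% in the same order, with 11.52% along the arms. In the shared distal peaks, the flank shares were 9.72% for AGATAC and 12.28% for AATGGG, and in ZKSCAN3-only distal peaks 7.27% and 10.72%. Thus both words were above their flanks in the shared distal centres, and in the ZKSCAN3-only distal centres AATGGG was not.

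The ZKSCAN4-only distal peaks split by arm, score or place are those on which the words were ranked, so their values restate that selection and give no separate support. AGATAC was at 12.88% (X) to 17.36% (2R) of centres and at 7.68% to 9.65% of flanks, and AATGGG at 14.95% (3R) to 19.32% (X) of centres and at 8.89% to 13.26% of flanks. AGATAC was in 19.31% of the highest and 12.88% of the lowest of the 4 score groups, though in only 12.38% of the second highest, and AATGGG in 14.63% of the highest and 16.9% of the lowest. In coding exons AGATAC was in 7.19% of centres and in introns in 17.41%. Along the peaks, counted per 50 bp, AGATAC reached 5.18% of peaks at 75 bp from the centre, with a mean of 2.70% in the 8 outermost bins, and AATGGG 5.28% at 25 bp, with 3.05%. Both words occurred together in 38 centres (1.91%), AGATAC alone in 267, AATGGG alone in 311 and neither in 1371 (69.0%), and 1205 (60.64%) held neither word nor GATAAG.

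**Figure D3:**
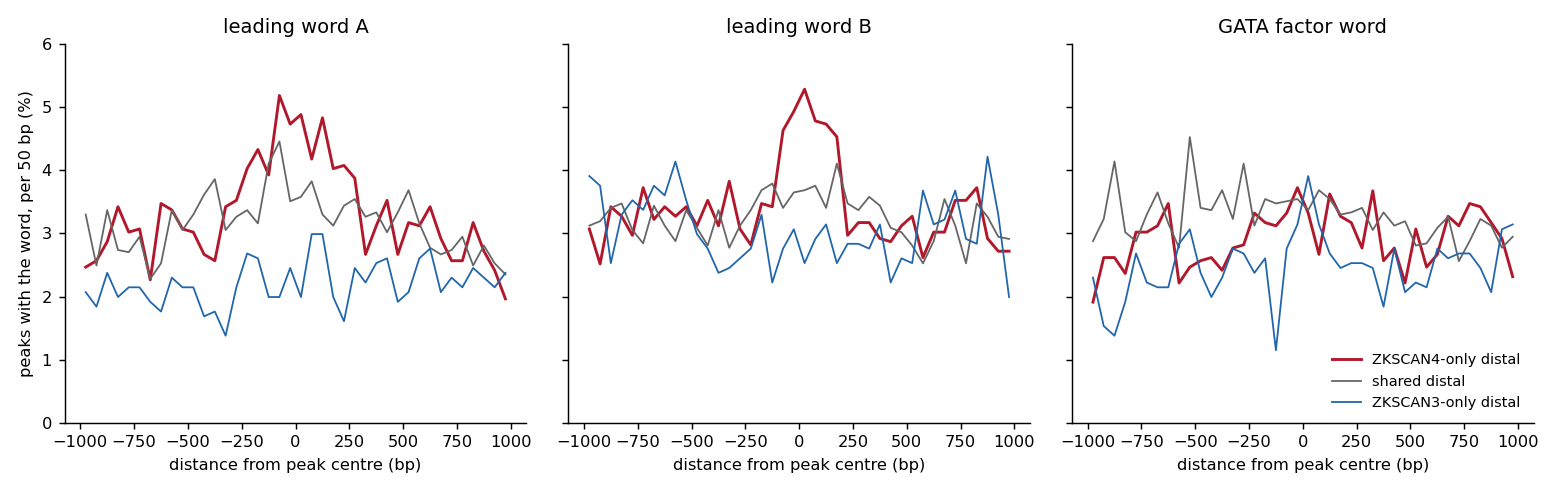
Percentage of peaks with a word per 50 bp (vertical axis) against the distance from the peak centre in bp, for the second word of the scan (leading word A), its first word (leading word B) and the GATA factor word, in ZKSCAN4-only distal, shared distal and ZKSCAN3-only distal peaks. In ZKSCAN4-only distal peaks leading word A reached 5.18% and leading word B 5.28% near the centre, and the GATA factor word 3.72%.

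Some of the peaks lay close together. Within 5 kb of 802 of the 2086 (38.45%) there was another ZKSCAN4-only distal peak, and within 5 kb of 1578 (75.65%) another ZKSCAN4 peak of any kind. Joined at gaps of up to 5 kb they made 1525 runs, of which 1202 were single peaks, 323 had at least 2 peaks, 92 at least 3 and 32 at least 4. The runs with most peaks were 7 in 15752 bp within tai (2L:9185653-9201404), 7 in 12730 bp at Gbs-70E (3L:14543843-14556572), which encodes a glycogen-targeting subunit of protein phosphatase 1, and 6 in 13193 bp within Pli (3R:23868498-23881690).

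Genes were linked to the peaks by place only, which says nothing of regulation. Of the 1987, 1654 lay inside at least 1 gene, 116 of them inside more than 1, and 333 were assigned to the nearest start. They led to 1397 genes (7.99% of 17494), of which 1009 had 1 peak, 388 at least 2 and 38 at least 5. The linked genes were long, with a median span of 9.74 kb against 1.73 kb over all genes, and a long gene offers more room for a peak. A ZKSCAN3 peak stood within 500 bp of the start of 961 of them (68.79%), against 46.86% of all genes, and a ZKSCAN4 peak at 773 (55.33%), against 30.57% of all genes. With the genes linked to shared distal peaks they had 601 in common, which is 43.02% of the genes linked to ZKSCAN4-only distal peaks and 37.35% of the others.

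**Figure D4:**
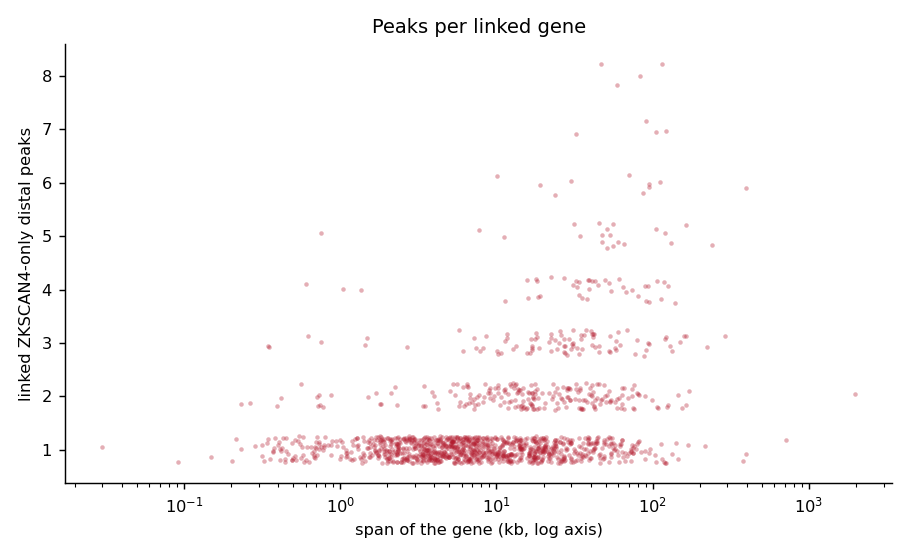
ZKSCAN4-only distal peaks per linked gene (vertical axis, whole numbers spread by up to 0.25 to separate points) against the span of the gene in kb on a log axis, 1 point per gene. Most genes had 1 peak, and the genes with 8 spanned 46.48 to 114.8 kb.

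The largest numbers, 8 peaks, were at tai, at Ten-m with lncRNA:CR45962, which lies inside its span, and at Pura. In tai the 7 peaks of the run lay in introns, 19.18 to 34.21 kb downstream of the start, with scores of 137.1, 118.0, 41.37, 36.27, 28.84, 24.41 and 20.82, and the eighth in a coding exon at 68.38 kb scored 20.25 and was 180 bp from a ZKSCAN3 peak. The ZKSCAN3 peaks nearest to those 7 were 1684 to 7546 bp away. In Ten-m, a teneurin of cell surface recognition, all 8 were intronic, 3.423 to 39.55 kb from the start, with scores from 10.07 to 95.01, and 7 of them had no ZKSCAN3 peak within 10000 bp. Pura had 8, of which 7 were intronic and 1 lay in a 5' UTR, with scores from 13.76 to 76.97. Meltrin (an ADAM metalloprotease), Svil (the actin-binding supervillin), bun (a TSC-22 family factor) and pyd (the junction protein ZO-1) had 7 each, and Pli (Pellino, a ubiquitin ligase of Toll signalling) and fng (Fringe, which modifies Notch) had 6 each.

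The gene lists set down for S2 cells and fat body were linked to very different degrees. Of 5 GATA factor genes 4 were linked: pnr (Pannier) had 4 peaks, of which 2 lay upstream of the start at -6.865 and -5.553 kb with scores of 47.5 and 8.545, and srp (Serpent), GATAd and GATAe had 1 each, that of srp scoring 26.61 in an intron. Of 10 hemocyte and S2 genes only ush was linked, which encodes the Friend of GATA cofactor, with 4 intronic peaks, of which the highest, at 2L:505890-506840, scored 113.7. Of 10 genes of the ecdysone response 8 were linked, with 21 peaks, and these are transcription factors that relay the steroid pulses of larval development. The nuclear receptor gene ftz-f1 had 5 intronic peaks, of which those at 34.64, 39.45 and 31.67 kb scored 96.77, 83.91 and 72.79. Eip75B and Eip74EF had 4 each, Eip93F, br and EcR 2 each, and Eip78C and Hr4 1 each, with scores of 91.15 and 62.31 for the single peaks of Eip78C and Hr4. These links were not particular to ZKSCAN4-only distal peaks. Shared distal peaks numbered 18 at Eip75B, 10 at Eip74EF, 6 at EcR and 5 at ftz-f1, and were fewer at no linked gene of the ecdysone list. They numbered 8 each at pnr and ush and 4 at srp, but 0 at GATAd.

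Of the other lists, 6 of 10 Hox genes and cofactors were linked, with 7 peaks, and 4 of 5 genes of EGFR signalling, among them the ETS activator pnt with 5 intronic peaks and the feedback inhibitor sty with 2. JNK and AP-1 had 1 of 5 (kay, the fly Fos), JAK/STAT 2 of 5 (Stat92E and chinmo) and the immune list 3 of 6 (cact, PGRP-LC and Dif). Among 20 autophagy genes 3 were linked, each with 1 peak: Atg13 (21.02), Atg4b (15.73) and Atg1 (12.1). All 3 of these scores were below the median of the ZKSCAN4 list. Shared distal peaks linked to these genes numbered 12 at pnt, 6 at sty and 5 at Atg1. They were fewer than the ZKSCAN4-only distal peaks at Dfd, lab, Egfr, Stat92E, PGRP-LC, Atg13 and Atg4b. All lists were compared with no test, since they were chosen with results of these data known and long genes are linked more often.

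The linked genes were more often expressed in the fat body than genes at large, although the peaks were mapped in S2 cells. Per library, 66.43% to 75.09% of the 1397 linked genes reached 1 TPM (a level corrected for gene length and library size), against 46.15% to 58.72% of all genes, and their median was 3.524 to 6.765 TPM, against 0.549 to 2.324 TPM over all genes. The upper ends came from M1BP RNAi replicate 1, which stood apart, and without it the ranges ended at 73.01% and 5.734 TPM for linked genes and at 50.6% and 1.077 TPM for all genes. In bulk fat body, fewer cells of a type and less RNA per cell cannot be told apart.

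L3W larvae were compared with L3F larvae to see how the linked genes behaved at the passage from feeding to wandering, when ecdysone rises and fat body cells begin autophagy. Of 1198 linked genes tested, 150 (12.52%) were called at an adjusted p under 0.001 by edgeR's quasi-likelihood test, against 7.79% of all genes tested. Of them 114 (9.52%) were higher in L3W, against 4.27% of all genes, and 36 (3.01%) were lower in L3W, against 3.52% of all genes. Among the other genes at least as long as the median linked gene, 75 of 1123 (6.68%) were called. Genes linked to shared distal peaks were called at 13.14% and those linked to ZKSCAN3-only distal peaks at 9.86%, with many genes in common. Of the genes linked to ZKSCAN4-only distal but not to shared distal peaks 66 of 641 (10.3%) were called, 41 higher and 25 lower in L3W. Linked genes with 3 or more peaks were called at 19.5% (31 of 159), those with 2 at 11.28% (22 genes) and those with 1 at 11.49% (97 of 844). The count rested on all 4 libraries. With any 1 of them left out, which leaves 1 library in a group, calls fell both among linked genes and over all genes tested. With a threshold of 0.05 the count of linked genes was 693 (57.85%, against 48.0% of all genes tested), and DESeq2 called 559 (45.4%, against 31.5% of all genes).

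Summed marker levels of hemocytes and of fat body differed between the stages. The summed level of the 10 hemocyte and S2 genes, all of them at 1 TPM or more, was 224 to 261 TPM in L3W, against 501.7 to 783.6 TPM in L3F, and that of 6 fat body storage protein genes 205500 to 206300 TPM in L3W, against 281500 to 283700 TPM in L3F. Of the 10 hemocyte and S2 genes only Ppn was called, as lower in L3W, and their median log2 fold change was -0.50. The part of both gene lists in the calls was not tested.

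Among the called genes, those with many peaks included Pli and Pura. Pli was at 134.4 and 141.9 TPM in L3W, against 6.617 and 8.393 TPM in L3F (log2 fold change 3.98 ± 0.15 SE, edgeR adjusted p = 0.000493). Pura, which encodes a guanine nucleotide exchange factor of the puratrophin type, was at 6.636 and 7.455 TPM in L3W, against 0.605 and 0.489 TPM in L3F (3.46 ± 0.17, adjusted p = 0.000606). The levels of these 2 genes did not overlap between the stages. Svil was called as well, with 7.012 and 6.805 TPM in L3W, against 1.951 and 1.856 TPM in L3F (1.63 ± 0.10, adjusted p = 0.00084), and so was Samuel, with 14.64 and 14.25 TPM in L3W, against 3.496 and 3.289 TPM in L3F (1.86 ± 0.11, adjusted p = 0.000819). For tai, which held one of the 7-peak runs, the levels were 22.09 and 20.21 TPM in L3W, against 6.19 and 5.242 TPM in L3F, and this did not pass (1.66 ± 0.14, adjusted p = 0.00182). Nor did Ten-m (2.28 ± 0.23, adjusted p = 0.00266), bun (0.90 ± 0.13, adjusted p = 0.00769), pyd, Meltrin and fng.

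Of the list of 10 ecdysone response genes, 4 were higher in L3W and 3 of these were linked. Hr4, a nuclear receptor, was at 22.84 and 19.08 TPM in L3W, against 0.198 and 0.162 TPM in L3F (6.64 ± 0.22, adjusted p = 0.000449). Eip75B, a heme-binding nuclear receptor, was at 48.19 and 44.96 TPM in L3W, against 4.602 and 4.334 TPM in L3F (3.15 ± 0.11, adjusted p = 0.000479). The third was br, whose zinc finger proteins govern metamorphosis, at 74.6 and 74.31 TPM in L3W, against 10.34 and 8.045 TPM in L3F (2.79 ± 0.17, adjusted p = 0.000836). Of ftz-f1, in contrast, the levels were 0.291 and 0.390 TPM in L3W, against 1.591 and 1.234 TPM in L3F, and the difference did not pass (-2.29 ± 0.25, adjusted p = 0.00341). The median log2 fold change over the 10 genes of the list was 2.97, against -0.01 over all genes tested.

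Single linked genes of the other lists were called. Atg1, the kinase that starts autophagy, was at 107.8 and 90.33 TPM in L3W, against 6.588 and 6.305 TPM in L3F (3.72 ± 0.16, adjusted p = 0.000532), and was 1 of 6 called among 19 Atg genes tested, the other 5 without a linked peak. The ETS repressor aop was at 15.61 and 19.64 TPM in L3W, against 1.85 and 1.755 TPM in L3F (3.06 ± 0.15, adjusted p = 0.000597), and the Toll pathway factor Dif at 12.37 and 13.78 TPM in L3W, against 2.249 and 1.825 TPM in L3F (2.45 ± 0.16, adjusted p = 0.00091). None of the GATA, Hox, JNK or JAK/STAT genes tested passed in this fit, which says only that adjusted p was not under 0.001. Of the 10 Hox genes and cofactors 7 were tested, and the linked genes Dfd, lab and pb had too few counts. The fat body GATA gene srp was at 94.46 and 91.17 TPM in L3W, against 37.43 and 33.65 TPM in L3F (1.16 ± 0.11, adjusted p = 0.00229).

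The largest differences among called linked genes were those of genes with 1 linked peak each. The scavenger receptor gene santa-maria was at 233.5 and 251.5 TPM in L3W, against 0.0222 and 0.0261 TPM in L3F, where it had 5 and 6 counts (13.03 ± 0.15, adjusted p = 0.000406), and its peak scored 9.961. The lysosomal mannosidase gene LManI was at 268.8 and 245.4 TPM in L3W, against 4.279 and 3.602 TPM in L3F (5.80 ± 0.17, adjusted p = 0.000433), with a peak of score 60.67. On the other side, su(r), the first enzyme of pyrimidine breakdown, was at 4.008 and 2.583 TPM in L3W, against 166.6 and 124.6 TPM in L3F (-5.69 ± 0.36, adjusted p = 0.000884). CG3902 (-4.66 ± 0.13, adjusted p = 0.000429) and CG31689 (-4.16 ± 0.21, adjusted p = 0.00064) were lower in L3W too. CG43336 and lncRNA:CR45980, next to the first and the ninth peak by score, had too few counts to be tested.

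**Figure D5:**
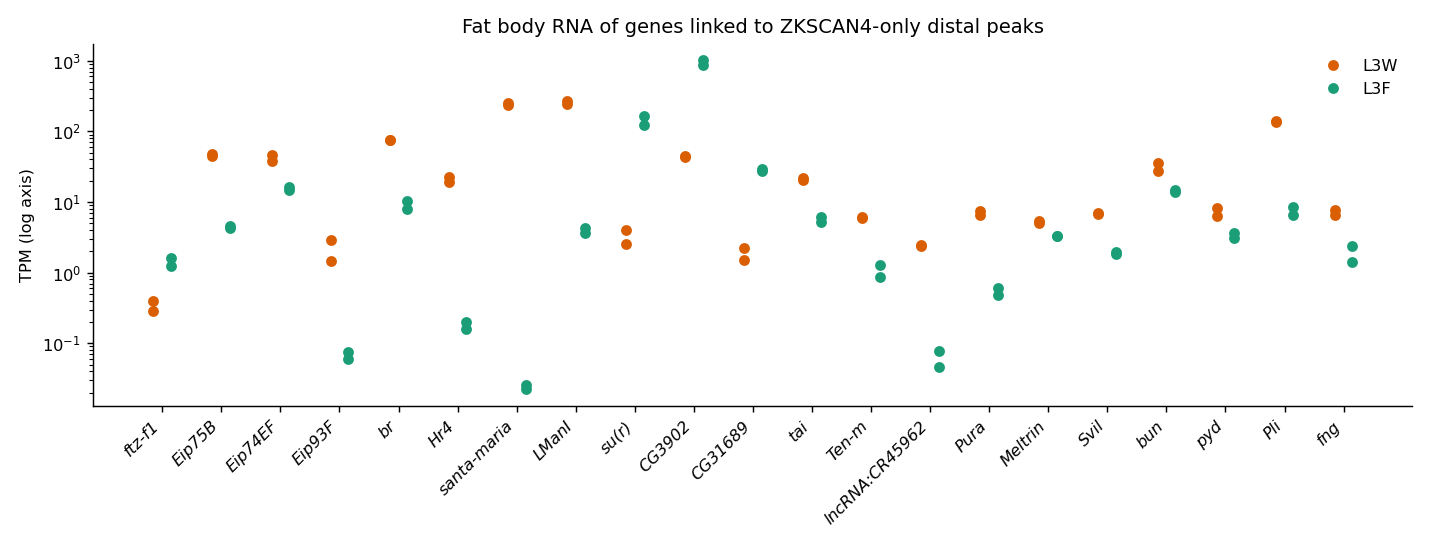
Fat body level in TPM (vertical log axis) of 21 linked genes named by the rule, 1 point per library, with L3W left of L3F for each gene. Pli stood at 134.4 and 141.9 TPM in L3W, against 6.617 and 8.393 TPM in L3F, and ftz-f1, su(r), CG3902 and CG31689 were the genes shown that were lower in L3W.

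M1BP RNAi larvae were compared with WT larvae as the second contrast of the design, on the factor whose motif was nearly missing from these peaks. M1BP itself was at 9.764 and 8.877 TPM in M1BP RNAi, against 16.32 and 16.51 TPM in WT (log2 fold change -1.27 ± 0.14 SE, edgeR adjusted p = 0.00776), so the targeted gene was lower in both libraries without passing 0.001. Of 1214 linked genes tested 0 were called, against 0.0341% of all genes tested (4 genes). At an unadjusted p under 0.05 there were 427 linked genes (35.2%, against 29.6% of all genes). DESeq2 called 126 (10.2%, against 7.62% of all genes), and edgeR at an adjusted p under 0.05 called 133 (10.96%, against 8.22% of all genes). Their median log2 fold change was 0.12, against 0.11 over all genes. The sum over the 10 hemocyte and S2 genes was 783.6 to 785.6 TPM in M1BP RNAi, against 1545 to 1744 TPM in WT. The median log2 fold change over these 10 genes was 0.62 with 0 called, so the sum and the typical gene went opposite ways. The part of these genes in the counts above was not tested.

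The M1BP RNAi libraries differed from each other in some genes that were high in L3W, of which 4 are given here, chosen after their values were seen. For santa-maria the levels were 15.2 and 0.00419 TPM in M1BP RNAi, against 0 and 0.00862 TPM in WT, so that the difference came from replicate 1 alone. Hr4 was at 2.761 and 0.213 TPM in M1BP RNAi, against 0.118 and 0.133 TPM in WT, and LManI at 63.42 and 13.69 TPM in M1BP RNAi, against 4.981 and 4.081 TPM in WT. For Pli the levels were 42.31 and 18.83 TPM in M1BP RNAi, against 9.22 and 6.72 TPM in WT (1.46 ± 0.66, adjusted p = 0.195). In these 4 genes replicate 1 of M1BP RNAi was the higher, and none of the 4 was called (edgeR adjusted p = 0.112 to 0.195).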

How the data were processed

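ChIP-seq peak lists of 2 factors in S2 cells and RNA-seq counts of 12 fat body libraries were used. The score in column 5 of each deposited peak list came from the authors' MACS2 calling with input, 2 replicates and an irreproducible discovery rate of 1%, merged into 1 list per factor, and its meaning is not given. The deposited counts were made by the authors with Subread and featureCounts from unique dm6 alignments, without strand and with a read counted for every gene it overlapped. The authors' tables of fold changes and p-values were not used.

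The build was checked by gene position (17229 of 17358 genes, 99.26%, had the same span in the Ensembl annotation). The members, gene lists and rules were chosen with earlier results of these data known. Named were the 10 highest-scoring peaks, the 10 genes linked to most peaks, linked genes of the lists (at most 5 values a list), per contrast the 3 largest called changes each way with a mean of at least 10 CPM in the higher group and no overlap, and the 10 leading words.

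Words were counted within 100 bp of the centre on both strands, with flanks 1000 bp away, in Python 3.11.15 with SciPy 1.17.1 and pandas 2.3.3, and compared by Fisher's exact or the exact McNemar test with Benjamini-Hochberg adjustment over 8 tests. The 14 tests of further words and of coding exons were added after the data had been seen. Counts were tested in R 4.3.3 with edgeR 4.0.16 (filterByExpr, TMM, quasi-likelihood, threshold 0.001), the 4 female libraries (10720 genes) apart from the 8 male ones (11723 genes, all groups in 1 fit). TPM was computed from the counts and exon lengths. Alternatives were another overlap, promoter window, start set, score cut, arm set, window or word, and for counts DESeq2 1.42.0, its size factors, no filter, a threshold of 0.05, a replicate block and each library left out. Both steps were tested on simulated data. Columns of the deposited tables not matched to a sample numbered 0. Figures were drawn with matplotlib 3.10.9.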

Additional observations from a re-analysis of the deposited data

How the results depend on the processing

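Of 68 alternatives to the peak tests, 52 kept their direction and side of the threshold. The number of ZKSCAN4-only distal peaks was 1374 when both lists were cut at their median score, and stayed within 1.5 times 2086 in 5 other settings. Only 583 of the 2086 reached the median score of the ZKSCAN4 list, so the 1374 also held peaks overlapping a ZKSCAN3 peak that the cut had removed. In that set the differences were 4.39 points for GATAAG and -0.89 points for Motif 1 against ZKSCAN3-only distal peaks. Against shared distal peaks they were 0.89 points for GATAAG, 0.0442 points for Motif 1 and 0.43 points for the intronic share. By gene span, without that cut, the intronic difference was 0.75 points. Over whole peaks, which differ in width, GATAAG differed by 6.96 points from ZKSCAN3-only distal, by -14.91 points from shared distal and by -4.98 points from ZKSCAN4-only promoter peaks, and Motif 1 by -0.64 and -1.03 points from ZKSCAN3-only distal and shared distal peaks. GATAAG against ZKSCAN4-only promoter peaks turned to -0.75 points when a ZKSCAN3 peak within 500 bp made a peak shared and to -0.0511 points for GATAA. The centre against the flank fell to 1.62 points with an overlap of 50%, 1.47 points with promoters of 1000 bp and 0.25 points for GATAA. The causes were not tested.

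Linked genes called in L3W against L3F numbered 150, but 0 to 18 with 1 library left out, 559 with DESeq2 (3740 of all genes), 693 at a threshold of 0.05 (5146 of all genes) and 0 with a replicate block. For M1BP RNAi against WT the count was 0 (4 of all genes). It was 126 with DESeq2 (942 of all genes), 133 at a threshold of 0.05 (964 of all genes) and 0 with the replicate block (0 of all genes). With 1 library left out, which leaves 1 library in a group, calls over all genes fell in both contrasts. Among linked genes they fell in L3W against L3F. The deviations of same-numbered libraries correlated at -0.09 in females and at -0.22 to 0.44 over 6 pairs of male groups. The numbers were not taken as pairs, although at the highest male value same-numbered libraries did deviate together. The peak lists carry no replicates, so none of the peak shares could be given a replicate error, and depth per ChIP library was not analysed here.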
